A study of Mus musculus with 24 samples.

Results

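The Ncoa2 locus is the gene that was targeted to make the knockout macrophages of this study, and it is described here as a set of 21 ATAC-seq peaks out of 144411 in the count matrix. ATAC-seq counts the cuts that a transposase makes in open DNA, so a peak is a stretch of accessible chromatin. Of the 21 peaks, 18 carry the gene name Ncoa2 in the authors' deposited table. The other 3 have no row there and were assigned because an Ncoa2 transcription start site (TSS) is the nearest listed one, within 50 kb. The farthest of these 3 lay at 43.8 kb from the listed start site at 13372429. It averaged 1.77 CPM (counts per 1000000 counts of the library) over the 24 libraries. The nearest unnamed peak beyond the limit lay 54.2 kb from the other listed start site, at 13374083, and averaged 0.874 CPM. That peak lay nearer to 13372429, but still more than 50 kb away.

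Bone marrow of male mice aged 8 to 10 weeks was grown into macrophages over 5 days in L-cell conditioned medium. All groups were C57BL/6 and LysM-Cre+/+, a Cre recombinase driven by a promoter active in myeloid cells. KO cells were GRIP1fl/fl and WT cells GRIP1wt/wt, so the WT cells carry the recombinase as well. Cells of both genotypes received 100 nM dexamethasone (Dex, a synthetic glucocorticoid), 10 ng/ml interleukin 4 (IL4) or vehicle, which gives KO Dex, WT Dex, KO IL4, WT IL4, KO vehicle and WT vehicle, with 4 libraries each. Titles give 24 h for every group, and the treatment label of the vehicle libraries gives 25 h. The labels name neither the floxed exons nor the share of cells in which they were removed, and they leave unsaid if the 4 libraries in each group are from separate mice. The p-values thus measure the spread between libraries, which may be technical.

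Ncoa2 encodes GRIP1, also called TIF2 or SRC-2, a member of the p160 family of nuclear receptor coactivators. A ligand-bound receptor such as the glucocorticoid receptor binds GRIP1 through short leucine-rich motifs, and GRIP1 in turn brings in histone acetyltransferases and a histone methyltransferase that open chromatin at the target gene. In macrophages GRIP1 is known to act with the glucocorticoid receptor in both activation and repression of transcription. By its title, the study set glucocorticoid and IL4 programming of macrophages side by side.

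Counts in peaks ran from 5820149 in WT Dex replicate 2 to 21939330 in WT Dex replicate 4, with a median of 33 over the tested peaks. All 10 macrophage marker genes had a TSS peak, including Csf1r, Adgre1 and Spi1, and these peaks summed to 304 to 390 CPM in every library. No TSS peak was found for Cd3e, Cd79a, Ly6g or Col1a1, which mark T cells, B cells, neutrophils and fibroblasts. The TSS peaks of the neutrophil list, 4 of 7 genes, summed to 25.7 to 42.2 CPM over the KO libraries and 28.6 to 48.7 CPM over the WT libraries, most of it from S100a8 and Camp. The small peaks of the other 2 went the other way: Ngp averaged 1.88, 1.10 and 1.61 CPM in KO with Dex, IL4 and vehicle, against 0.770, 0.433 and 0.518 CPM in WT, and Ltf 1.58, 1.84 and 2.09 CPM in KO, against 1.19, 1.03 and 1.16 CPM in WT. Their part in the genotype results was not tested. In pooled cells, a peak open in more cells and a peak more open in each cell cannot be told apart.

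The gene runs along chromosome 1 from 13139105 to 13374227 on the minus strand (mm10, coordinates of the RefSeq entry). Of the 21 peaks, 17 lay inside it and 4 upstream of it. Peaks are named here by the distance of their midpoint from the nearest of the 2 listed start sites (13374083 and 13372429), with negative distances upstream. The annotation used gives gene spans and no exons. All 21 peaks passed the filter on low counts and were tested, with 3 to 1929 counts in a library. The peaks were 219 to 2381 bases long, with a median of 477. Peaks at 104.9, -50.6 and -52.6 kb overlap an enhancer of the FANTOM catalogue in the deposited annotation.

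The TSS peak at chromosome 1, 13372246 to 13374626, spans both start sites and was by far the most accessible. It averaged 85.8 CPM over the 24 libraries, 49.5% of the sum over the 21 peaks, and 36.05 CPM per kb of peak length. A cluster of 3 peaks followed upstream, with 17.5 CPM per kb at -50.6 kb, 17.2 at -52.6 kb and 13.2 at -49.7 kb. The other peaks had between 4.75 and 11.2 CPM per kb. In CPM, 13 of the 21 peaks averaged under 5.

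The first comparison asked whether accessibility of the targeted gene differed by genotype. Distal peaks differed, and the TSS peak was not called. In the mean over the 3 treatments, 7 of the 21 peaks (33.3%) differed between KO and WT at an adjusted p under 0.05 (called), 3 higher and 4 lower in KO, where 4.54% of all 130103 tested peaks were called. Same-numbered libraries of a genotype deviated from their group means together in each of 24 pairs (r = 0.003 to 0.202), so the 12 libraries of a genotype may not be independent in this mean. With the counts of those libraries summed over treatments, 4 KO sums against 4 WT sums, 5 of the 21 peaks were called, 2 higher and 3 lower in KO, and 1.29% of all peaks. A peak at -49.7 kb was 6.33-fold higher in KO, one at 116.0 kb was lower by a log2 fold change of -1.17, and the other 5 called peaks differed by less. The median log2 fold change was -0.0089 over the 21 peaks and -0.0026 over all tested peaks. All tests are edgeR quasi-likelihood tests on the counts, adjusted over all tested peaks, and levels are CPM scaled by TMM factors. Within single treatments, 3 of 21 peaks were called with Dex (1 higher, 2 lower in KO; 0.953% of all peaks), 5 with IL4 (1 higher, 4 lower; 0.841%) and 2 with vehicle (1 higher, 1 lower; 0.616%). In the authors' deposited table, which lists 18 of the 21 peaks, the FDR was under 0.05 at 3, 4 and 2 peaks in these comparisons.

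**Figure D1:**
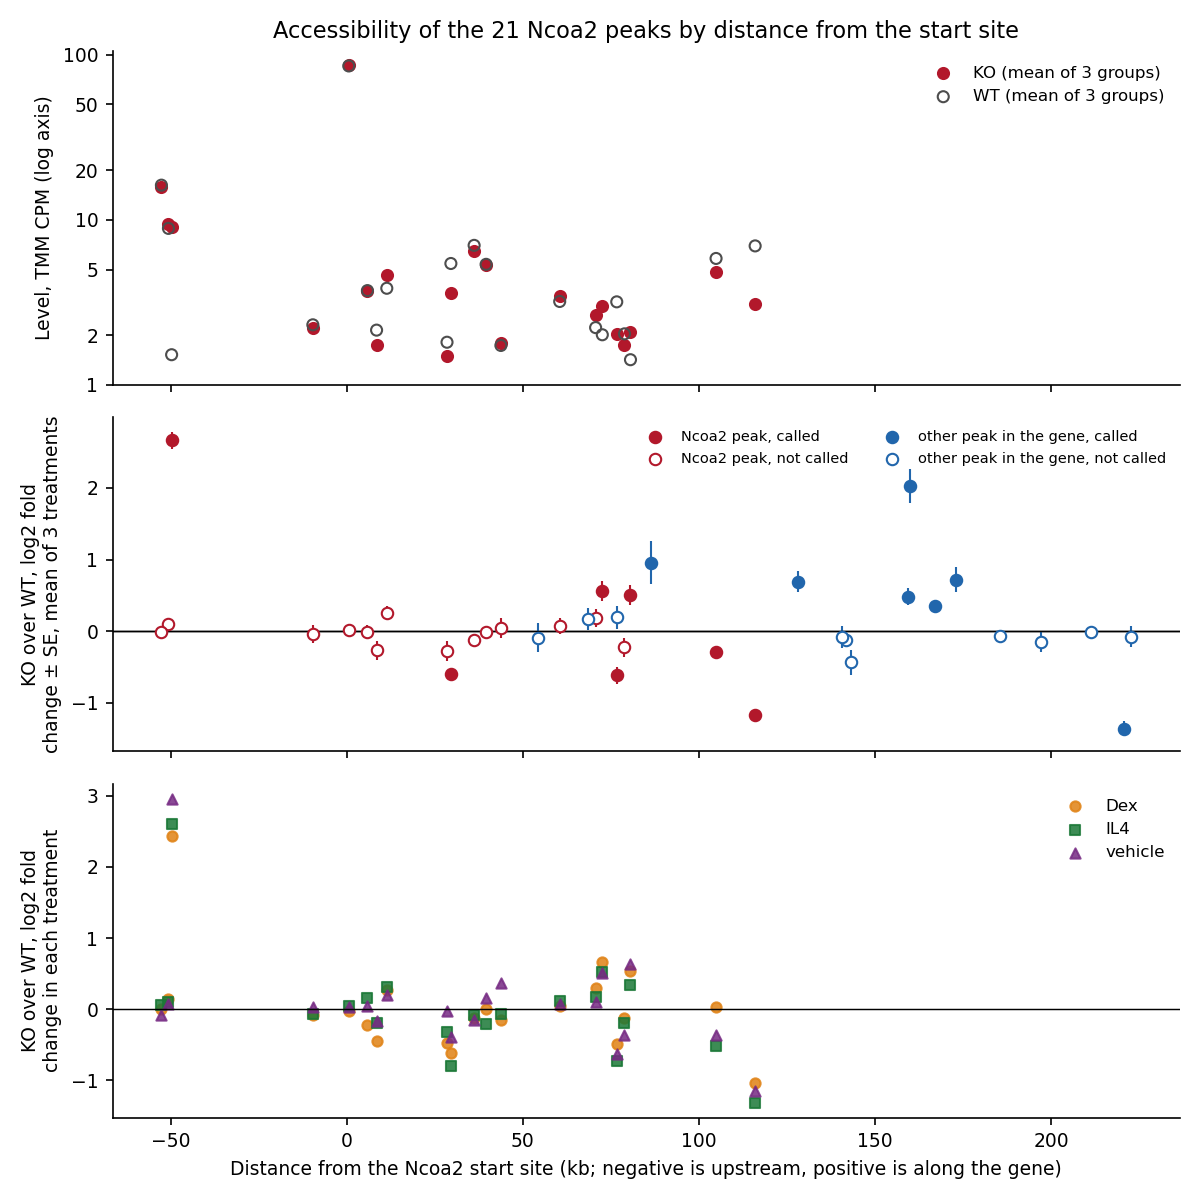
Each of the 21 Ncoa2 peaks by distance from the nearest listed start site in kb. The other peaks in the gene are placed by distance from the start site at 13374083. Top, mean TMM CPM of the KO groups (filled) and WT groups (open) on a log axis; middle, log2 fold change of KO over WT with its SE, filled where called, with 17 other tested peaks inside the gene in blue; bottom, the same fold change in each treatment. The peak at -49.7 kb stands highest above 0 and the one at 116.0 kb lowest among the Ncoa2 peaks, while the TSS peak is at 0.01.

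The TSS peak had 92.1, 94.9, 94.0 and 94.8 CPM in KO Dex, against 95.7, 101.4, 97.6 and 90.01 CPM in WT Dex. It had 78.7, 76.2, 72.03 and 80.5 CPM in KO IL4, against 75.6, 76.3, 74.2 and 71.3 CPM in WT IL4. It had 81.9, 88.8, 91.95 and 87.6 CPM in KO vehicle, against 87.03, 85.6, 88.1 and 83.8 CPM in WT vehicle. The genotypes overlapped in every treatment. Averaged over treatments the log2 fold change was 0.01 ± 0.03 (SE; adjusted p = 0.873), and it lay between 0.003 and 0.06 over the alternatives. An accessible promoter is not a measure of the transcript, so these values do not check the genotype labels.

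The peak at -49.7 kb (chromosome 1, 13423543 to 13423943, 401 bases) lies upstream of the gene, just beyond the long noncoding RNA gene Gm39595 (13392554 to 13422408). It had 12.4, 13.7, 13.5 and 16.5 CPM in KO Dex, against 2.96, 2.95, 2.54 and 2.29 CPM in WT Dex. It had 4.70, 6.95, 6.02 and 3.83 CPM in KO IL4, against 0.909, 1.05, 0.408 and 1.02 CPM in WT IL4. It had 6.59, 8.73, 9.03 and 6.97 CPM in KO vehicle, against 0.614, 1.34, 1.07 and 1.13 CPM in WT vehicle. Every KO library was above every WT library, including KO IL4 against WT Dex. Accessibility was 5.40-fold higher in KO with Dex (log2 2.43 ± 0.15, SE; adjusted p = 1.58e-24), 6.05-fold with IL4 (2.60 ± 0.22; adjusted p = 2.06e-16) and 7.77-fold with vehicle (2.96 ± 0.21; adjusted p = 6.42e-20). In the mean over treatments it ranked 20 of 130103 tested peaks by p and 46 by the size of the fold change. The peak was called in each of the alternatives tried for each of these comparisons, with log2 fold changes from 2.59 to 2.71 for the mean. Counts per library were 49 to 278 in KO and as few as 4 to 49 in WT.

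The 2 peaks beside it were not called by genotype. At -50.6 kb, means were 11.1 ± 2.0 CPM in KO Dex and 10.4 ± 1.2 CPM in WT Dex, 7.62 ± 0.88 CPM in KO IL4 and 7.02 ± 0.92 CPM in WT IL4, and 9.53 ± 0.90 CPM in KO vehicle and 9.18 ± 0.23 CPM in WT vehicle (SD, n = 4 each). At -52.6 kb the log2 fold change of KO over WT was -0.01 ± 0.06 in the mean over treatments (adjusted p = 0.964), against 0.10 ± 0.07 at -50.6 kb (adjusted p = 0.465). The peaks at -50.6 and -52.6 kb are the ones of this cluster that overlap FANTOM enhancers.

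Inside the gene, the peak at 116.0 kb (chromosome 1, 13256160 to 13256636) was lower in KO under every treatment. It had 3.18, 3.03, 3.15 and 3.97 CPM in KO Dex, against 6.83, 5.91, 6.98 and 7.42 CPM in WT Dex. It had 2.69, 2.80, 2.57 and 3.52 CPM in KO IL4, against 7.44, 7.96, 6.93 and 6.43 CPM in WT IL4. It had 3.61, 3.05, 2.88 and 2.84 CPM in KO vehicle, against 6.30, 7.49, 7.37 and 6.39 CPM in WT vehicle. The 12 KO values all lay below the 12 WT values. The log2 fold change was -1.04 ± 0.14 with Dex (adjusted p = 4.59e-08), -1.32 ± 0.15 with IL4 (adjusted p = 5.83e-11), -1.15 ± 0.16 with vehicle (adjusted p = 1.01e-07) and -1.17 ± 0.09 in the mean (adjusted p = 1.43e-20; SE). With same-numbered libraries summed, KO against WT had an adjusted p of 5.27e-10. This peak and the one at -49.7 kb were the 2 members called in all 3 treatments. The share of all tested peaks called in all 3 was not computed, and it cannot exceed the 0.616% called with vehicle.

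The peak at 29.6 kb (chromosome 1, 13342449 to 13343216) had 3.88, 3.37, 3.85 and 3.14 CPM in KO Dex, against 5.49, 6.46, 5.33 and 4.99 CPM in WT Dex. It had 3.17, 3.93, 3.27 and 3.29 CPM in KO IL4, against 5.46, 6.85, 5.71 and 5.59 CPM in WT IL4. It had 3.85, 3.48, 4.32 and 3.48 CPM in KO vehicle, against 5.30, 4.36, 4.70 and 5.05 CPM in WT vehicle. The genotypes did not overlap in any treatment, though with vehicle the highest KO library, at 4.32 CPM, came close to the lowest WT library, at 4.36 CPM. It fell in KO by a log2 fold change of -0.60 ± 0.09 in the mean (adjusted p = 1.64e-07), -0.62 ± 0.15 with Dex (adjusted p = 0.00936) and -0.80 ± 0.15 with IL4 (adjusted p = 0.000166; SE). With vehicle the value was -0.39 ± 0.16 (adjusted p = 0.410). With same-numbered libraries summed, KO against WT had an adjusted p of 0.000222. The Dex call was lost without KO Dex replicate 4, and over the alternatives its adjusted p was 0.00587 to 0.0826.

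The peak at 76.7 kb (chromosome 1, 13295540 to 13295827) was also lower in KO and responded to IL4. It had 1.49, 1.38, 1.73 and 1.36 CPM in KO Dex, against 2.53, 1.66, 2.22 and 1.82 CPM in WT Dex. It had 2.40, 3.55, 2.92 and 2.97 CPM in KO IL4, against 5.37, 5.44, 5.10 and 3.73 CPM in WT IL4. It had 1.62, 1.56, 1.57 and 1.93 CPM in KO vehicle, against 2.54, 2.57, 3.20 and 2.06 CPM in WT vehicle. KO and WT overlapped with Dex, where KO Dex replicate 3 exceeded WT Dex replicate 2, and not with IL4 or vehicle. The mean log2 fold change of KO over WT was -0.62 ± 0.12 (adjusted p = 0.00014) and that with IL4 -0.73 ± 0.17 (adjusted p = 0.00617; SE). With same-numbered libraries summed, KO against WT had an adjusted p of 0.00535. The IL4 call was lost without KO IL4 replicate 1, without WT IL4 replicate 2 and in DESeq2, with an adjusted p of 0.00142 to 0.0677 over the alternatives.

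At 72.6 kb (chromosome 1, 13299665 to 13299973) the difference ran the other way. This peak had 1.29, 1.79, 2.36 and 1.84 CPM in KO Dex, against 1.34, 0.554, 1.15 and 1.21 CPM in WT Dex. It had 5.56, 5.44, 5.31 and 5.48 CPM in KO IL4, against 4.13, 3.51, 4.08 and 3.54 CPM in WT IL4. It had 2.24, 2.20, 0.916 and 1.56 CPM in KO vehicle, against 2.30, 0.559, 0.854 and 0.927 CPM in WT vehicle. The genotypes overlapped with Dex and vehicle and were apart with IL4. The mean log2 fold change was 0.56 ± 0.14 (SE; adjusted p = 0.00631), and no single treatment was called (adjusted p = 0.178 to 0.613). With same-numbered libraries summed, KO against WT had an adjusted p of 0.029, and it reached 0.0296 with a library left out of the mean.

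The remaining 2 calls rested on less. The peak at 104.9 kb, over a FANTOM enhancer, averaged 5.75 ± 0.36 CPM in KO Dex and 5.59 ± 0.28 CPM in WT Dex, 4.28 ± 0.31 CPM in KO IL4 and 6.11 ± 0.58 CPM in WT IL4, and 4.47 ± 0.89 CPM in KO vehicle and 5.81 ± 0.75 CPM in WT vehicle (SD, n = 4 each). It was called lower in KO with IL4 (log2 -0.52 ± 0.14, SE; adjusted p = 0.048) and in the mean (-0.29 ± 0.08; adjusted p = 0.0241). The IL4 call was lost in 12 of 16 alternatives, among them the removal of any KO IL4 library or of WT IL4 replicate 2, 3 or 4. The mean call was lost without KO vehicle replicate 4, without WT IL4 replicate 2, with total counts as the scaling and in DESeq2, and with same-numbered libraries summed (adjusted p = 0.257). The peak at 80.6 kb averaged 2.44 ± 0.57 CPM in KO Dex and 1.54 ± 0.55 CPM in WT Dex, 1.60 ± 0.26 CPM in KO IL4 and 1.29 ± 0.48 CPM in WT IL4, and 2.24 ± 0.77 CPM in KO vehicle and 1.44 ± 0.25 CPM in WT vehicle. It was called higher in KO in the mean (0.50 ± 0.14; adjusted p = 0.0248), a call lost with same-numbered libraries summed (adjusted p = 0.136), in DESeq2 and without KO vehicle replicate 1 or 4, KO Dex replicate 4, or WT IL4 replicate 2 or 3.

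**Figure D2:**
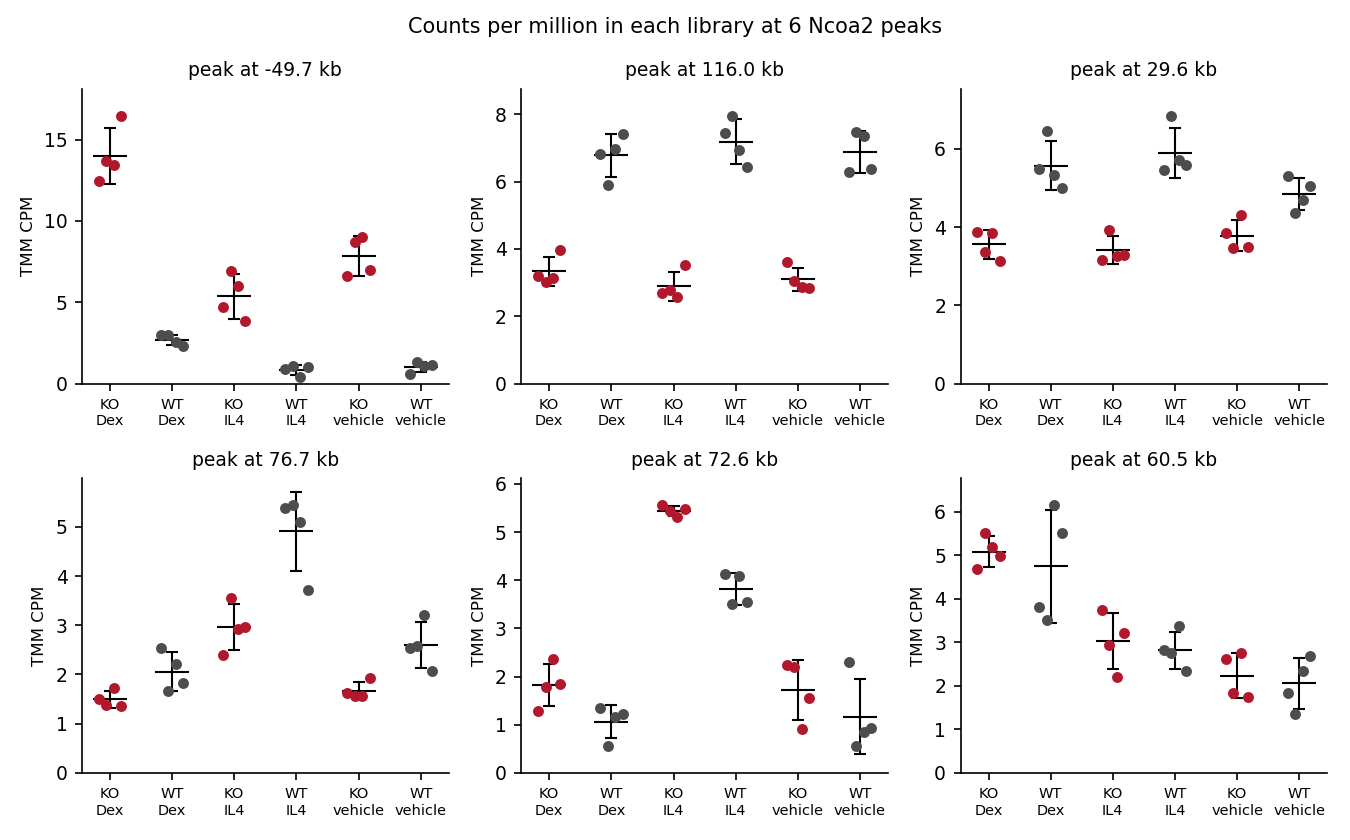
TMM CPM of each library (points), with the group mean and SD (bars), at 6 Ncoa2 peaks in the 6 groups of 4 libraries. KO libraries lie above all WT libraries at -49.7 kb and below them at 116.0 kb; the peaks at 76.7 and 72.6 kb are highest with IL4 and the one at 60.5 kb with Dex.

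The annotated gene also holds 19 peaks that do not count as Ncoa2 peaks, 8 assigned to Prdm14 downstream and 11 to no gene. Of these, 17 were tested, and 6 were higher and 1 lower in KO in the mean over treatments (41.2%). That share was 33.3% of the 21 Ncoa2 peaks and 4.54% of all tested peaks. With same-numbered libraries summed, 5 of these other peaks in the gene were higher and 1 lower. The lower one (13153076 to 13153733) averaged 2.03 ± 0.76 CPM in KO Dex and 5.04 ± 0.78 CPM in WT Dex, 2.12 ± 0.15 CPM in KO IL4 and 5.17 ± 0.81 CPM in WT IL4, and 2.14 ± 0.51 CPM in KO vehicle and 5.89 ± 0.51 CPM in WT vehicle (SD, n = 4 each). Its log2 fold change was -1.36 ± 0.11 (SE; adjusted p = 7.08e-19). This was the lowest fold change of KO over WT among the tested peaks in the gene, and the peak still held 11 to 30 counts in each KO library. The highest was at 13214072 to 13214211, where means were 1.32 ± 0.14 CPM in KO Dex and 0.345 ± 0.14 CPM in WT Dex, 1.21 ± 0.25 CPM in KO IL4 and 0.225 ± 0.12 CPM in WT IL4, and 1.21 ± 0.57 CPM in KO vehicle and 0.324 ± 0.25 CPM in WT vehicle (log2 2.02 ± 0.24; adjusted p = 1.04e-10). WT counts there were 1 to 9 per library.

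Peaks of the neighbouring genes moved with genotype as well. Within 1 Mb of the outermost Ncoa2 peaks and outside the gene, 32 of 74 tested peaks (43.2%) were called in the mean over treatments. Of the 32, 5 were higher and 27 lower in KO, and the alternatives gave 26 to 33 calls. The called share was 33.3% of the 21 Ncoa2 peaks and 4.54% of all tested peaks. The floxed allele is carried by every KO library and by no WT library, so loss of GRIP1 and any other difference carried with this stretch of chromosome 1 cannot be told apart in this design. The part of such a difference in the values at the Ncoa2 peaks was not tested.

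The second question was how the locus responds to Dex. In KO, 3 of the 21 peaks rose with Dex and none fell, where 13.6% of all tested peaks were called. In WT, 5 of the 21 rose and none fell, against 16.6% of all peaks. The 3 peaks called in KO, at 60.5, -49.7 and -52.6 kb, were among the 5 called in WT. The median log2 fold change of the 21 peaks was 0.15 in KO and 0.16 in WT, against -0.0072 and 0.0060 over all tested peaks. In the authors' deposited table, the FDR was under 0.05 at 3 of 18 listed peaks in KO and at 4 in WT.

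The peak at 60.5 kb (chromosome 1, 13311600 to 13312261) was the most Dex-responsive one inside the gene. It had 4.68, 5.50, 5.19 and 4.98 CPM in KO Dex, against 2.61, 1.85, 2.75 and 1.74 CPM in KO vehicle. It had 3.80, 3.51, 6.16 and 5.51 CPM in WT Dex, against 1.84, 1.34, 2.35 and 2.68 CPM in WT vehicle. Dex and vehicle libraries did not overlap in either genotype. The rise was 2.37-fold in KO (log2 1.24 ± 0.19, SE; adjusted p = 3.44e-07) and 2.40-fold in WT (1.26 ± 0.19; adjusted p = 2.54e-07).

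At -49.7 kb, the peak that was higher in KO, Dex raised accessibility in both genotypes. The group means were 14.0 ± 1.7 CPM in KO Dex and 7.83 ± 1.23 CPM in KO vehicle, and 2.69 ± 0.33 CPM in WT Dex and 1.04 ± 0.31 CPM in WT vehicle (SD, n = 4 each). The log2 fold change was 0.84 ± 0.13 in KO (adjusted p = 2.57e-07) and 1.37 ± 0.26 in WT (adjusted p = 2.67e-05; SE). Its neighbour at -52.6 kb (chromosome 1, 13426253 to 13427189) had 19.5, 20.8, 18.2 and 19.9 CPM in KO Dex, against 14.4, 15.1, 15.7 and 12.1 CPM in KO vehicle. It had 17.03, 25.7, 21.1 and 17.5 CPM in WT Dex, against 16.4, 13.97, 15.7 and 14.3 CPM in WT vehicle. Dex libraries lay above vehicle libraries in both genotypes, by a log2 fold change of 0.46 ± 0.10 in KO (adjusted p = 0.000269) and 0.37 ± 0.10 in WT (adjusted p = 0.00375).

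The other WT calls were at 43.8 and 5.9 kb. At 43.8 kb, WT Dex libraries had 2.39, 1.66, 2.63 and 2.66 CPM, against 1.84, 1.23, 1.18 and 1.24 CPM in WT vehicle, and the groups overlapped at WT vehicle replicate 1 (log2 0.80 ± 0.23, SE; adjusted p = 0.00959). In KO the value there was 0.28 ± 0.23 (adjusted p = 0.473), with KO vehicle at 1.77 ± 0.44 CPM (SD, n = 4). At 5.9 kb the WT value was 0.52 ± 0.17 (adjusted p = 0.024). That call was lost without WT Dex replicate 1 or 4, without WT vehicle replicate 1 or 4, with total counts as the scaling and in DESeq2. The TSS peak was not called with Dex, at 0.10 ± 0.06 in KO (adjusted p = 0.268) and 0.15 ± 0.06 in WT (adjusted p = 0.0608). With replicate number as a term within each genotype, the WT value was called (adjusted p = 0.00965).

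The third question was the response to IL4. In KO, 4 of the 21 peaks rose and 4 fell, where 31% of all tested peaks were called, and with loess offsets as the scaling 4 rose and 2 fell. In WT, 3 rose and 2 fell, against 35.4% of all peaks. All 5 peaks called in WT were among the 8 called in KO. The called share of the 21 peaks was 38.1% in KO and 23.8% in WT. The FDR in the authors' deposited table was under 0.05 at 7 of 18 listed peaks in KO and at 5 in WT, 4 of them called here, and the other one was the peak at 39.6 kb (FDR 0.0335).

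The Ncoa2 peaks that rose with IL4 in both genotypes lie near each other, at 70.7, 72.6 and 76.7 kb. A tested peak between those at 76.7 and 72.6 kb (13297092 to 13297445), assigned to no gene, was not called with IL4. Its log2 fold change was -0.44 ± 0.28 in KO (adjusted p = 0.249) and -0.53 ± 0.29 in WT (adjusted p = 0.154). At 72.6 kb the means were 5.45 ± 0.11 CPM in KO IL4 and 1.73 ± 0.62 CPM in KO vehicle, and 3.82 ± 0.34 CPM in WT IL4 and 1.16 ± 0.78 CPM in WT vehicle (SD, n = 4 each). The log2 fold change was 1.60 ± 0.21 in KO (adjusted p = 6.70e-10) and 1.59 ± 0.24 in WT (adjusted p = 3.46e-08; SE). WT vehicle replicate 1, at 2.30 CPM, was the highest of its group, and without it the WT value was 2.26. At 76.7 kb the rise was 0.83 ± 0.21 in KO (adjusted p = 0.00129) and 0.94 ± 0.18 in WT (adjusted p = 8.90e-06). At 70.7 kb (chromosome 1, 13301473 to 13301968) the libraries had 4.60, 4.16, 2.83 and 2.89 CPM in KO IL4, against 1.99, 1.42, 2.62 and 1.56 CPM in KO vehicle, and 2.48, 3.69, 2.96 and 3.54 CPM in WT IL4, against 1.77, 2.12, 1.18 and 1.65 CPM in WT vehicle. The groups did not overlap, and the log2 fold change was 0.99 ± 0.21 in KO (adjusted p = 0.00012) and 0.93 ± 0.22 in WT (adjusted p = 0.000382). None of these 3 was called with Dex in either genotype.

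In KO a further peak, at 5.9 kb, rose with IL4 (0.54 ± 0.17; adjusted p = 0.0107), a call lost without KO vehicle replicate 2. In WT its value was 0.41 ± 0.17 (adjusted p = 0.0542, and 0.0465 with replicate number as a term within each genotype). Of the peaks that fell, the one at 39.6 kb (chromosome 1, 13332556 to 13333032) had 4.60, 3.32, 3.81 and 3.21 CPM in KO IL4, against 5.84, 6.32, 5.49 and 7.06 CPM in KO vehicle, with no overlap. It had 4.30, 4.21, 3.47 and 5.12 CPM in WT IL4, against 4.07, 7.82, 6.09 and 4.84 CPM in WT vehicle, with overlap. The log2 fold change was -0.75 ± 0.16 in KO (adjusted p = 0.000121) and -0.38 ± 0.16 in WT (adjusted p = 0.0543; SE). With replicate number as a term within each genotype, the WT fall was called as well (adjusted p = 0.0168).

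The TSS peak was lower with IL4 in the fit scaled by TMM, by a log2 fold change of -0.19 ± 0.06 in KO (adjusted p = 0.0093) and -0.21 ± 0.06 in WT (adjusted p = 0.00271), but with loess offsets the values turned to 0.02 and 0.07 and were not called. Group means were 76.8 ± 3.7 CPM in KO IL4 and 87.6 ± 4.2 CPM in KO vehicle, and 74.3 ± 2.2 CPM in WT IL4 and 86.1 ± 1.9 CPM in WT vehicle (SD, n = 4 each). IL4 and vehicle libraries did not overlap in either genotype. In the upstream cluster, the peak at -50.6 kb fell with IL4 in KO (-0.33 ± 0.13; adjusted p = 0.0333) and in WT (-0.37 ± 0.13; adjusted p = 0.0172). The KO call was lost in 8 of 17 alternatives, among them the removal of KO IL4 replicate 1 or 2 or KO vehicle replicate 2, 3 or 4, and the WT call was lost without WT IL4 replicate 3 or 4. The peak at -49.7 kb fell with IL4 in KO (-0.54 ± 0.15; adjusted p = 0.00258), where one KO IL4 library overlapped KO vehicle. In WT, where it was near 1 CPM, its value was -0.18 ± 0.33 (adjusted p = 0.714).

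**Figure D3:**
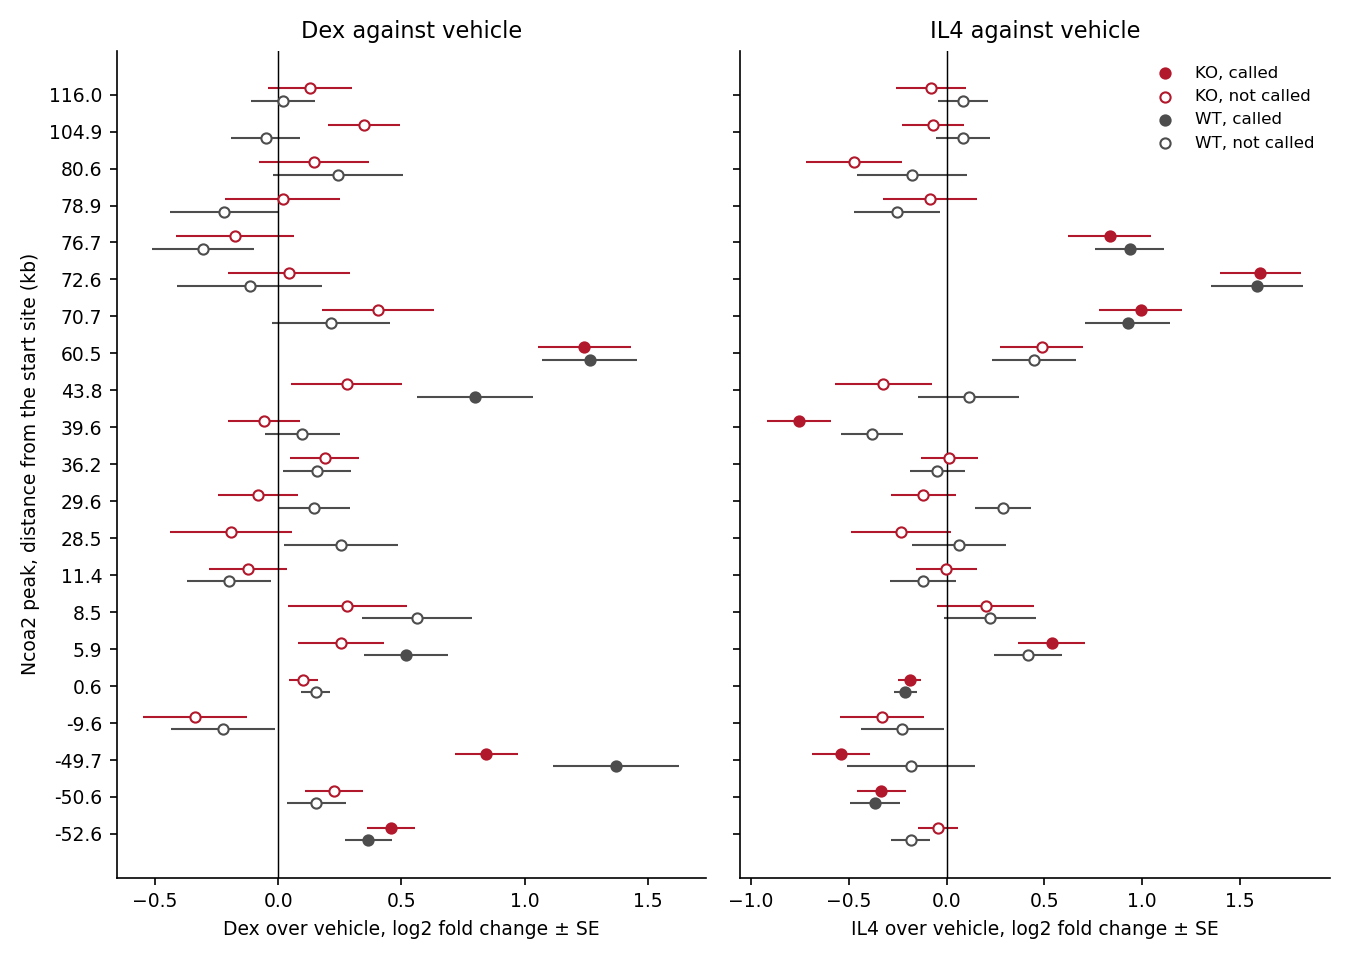
Log2 fold change of Dex over vehicle (left) and IL4 over vehicle (right) with its SE at each Ncoa2 peak, in KO (red) and WT (grey); filled points were called. The peaks at 60.5, -49.7 and -52.6 kb rose with Dex in both genotypes, and those at 76.7, 72.6 and 70.7 kb with IL4 in both.

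The difference between the genotypes in their response was tested as an interaction, and none of the 21 peaks was called for Dex (0% of all tested peaks) or for IL4 (0.00231% of all). In edgeR 0 of the 21 had an unadjusted p under 0.05 for either agent, with 0.0518 and 0.0667 as the smallest, and in DESeq2 also 0, with 0.0828 and 0.104. Over all tested peaks, 3.46% and 4.10% had an unadjusted p under 0.05. At -49.7 kb the Dex response of KO minus that of WT was -0.53 ± 0.29 on the log2 scale (SE; adjusted p = 1). Where one genotype was called and the other not, the difference itself was not called, at -0.52 ± 0.33 for Dex at 43.8 kb and -0.37 ± 0.23 for IL4 at 39.6 kb (adjusted p = 1 for both). In the authors' deposited table the FDR of all 18 listed peaks was 1 for both interactions.

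Over all comparisons, 7 of the 21 peaks were called in a genotype comparison, 11 in a treatment comparison and 3 in both, at -49.7, 72.6 and 76.7 kb. The matching shares of all tested peaks were not computed, and WT IL4 against WT vehicle alone called 35.4% of all tested peaks. The other 6 Ncoa2 peaks, at -9.6, 8.5, 11.4, 28.5, 36.2 and 78.9 kb, were called in none. They averaged 1.66 to 6.74 CPM, and the closest to a genotype call was the peak at 11.4 kb, at 0.26 ± 0.09 (SE; adjusted p = 0.0991). Summed over the 21 peaks, accessibility was 195 ± 5.1 CPM in KO Dex and 192 ± 8.4 CPM in WT Dex, 158 ± 2.3 CPM in KO IL4 and 159 ± 5.3 CPM in WT IL4, and 170 ± 6.5 CPM in KO vehicle and 167 ± 4.1 CPM in WT vehicle (SD, n = 4 each). The sums of KO and WT differed by less than their SD within each treatment. Without the peak at -49.7 kb, the KO mean was lower in each treatment, though the ranges of KO and WT overlapped. Those sums were 181 ± 4.0 CPM in KO Dex and 189 ± 8.3 CPM in WT Dex, and 153 ± 2.7 CPM in KO IL4 and 158 ± 5.2 CPM in WT IL4. With vehicle they were 162 ± 5.3 CPM in KO and 166 ± 4.2 CPM in WT. The difference in sums was not tested.

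Over the 24 libraries, the TSS peak varied most like the TSS peaks of Atp11a, Card19, Samd1, 1700034H15Rik and Tmem164, with a Pearson r of log2 CPM from 0.954 to 0.962 among 13870 peaks within 1 kb of a start site. The median r over these peaks was 0.614, and the libraries share treatment, scaling and depth. After the group means were removed, r was 0.618 to 0.845 for these 5. Among the Ncoa2 peaks, the upstream ones at -50.6 and -52.6 kb had an r with the TSS peak of 0.849 and 0.794, and the IL4-responsive ones at 76.7 and 72.6 kb had -0.752 and -0.748. Group means were not removed for these r, so they include the treatment responses given above. Among these is the fall of the TSS peak with IL4, which was not seen with loess offsets.

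A list of 26 genes held coactivators, corepressors, receptors and factors known to work with GRIP1, and also Tsc22d3 and Fkbp5. Of these genes, 20 had an assigned peak, and 341 peaks were tested. In the genotype mean 4 of these peaks were higher and 10 lower in KO (4.11%, against 4.54% of all peaks), with a median of -0.0067. The counts were 5 and 5 with total counts as the scaling, 6 in all in DESeq2, and 2 higher and 0 lower with same-numbered libraries summed. Over all tested peaks, 5428 were called with total counts, against 5905 in the main fit, and 1.29% with same-numbered libraries summed. The count over all peaks in DESeq2 is not given here. The 3 with the smallest p over the 24 libraries were a peak of Nrip1, a corepressor of nuclear receptors, at -187.4 kb (0.62 ± 0.14; adjusted p = 0.0014), a peak of Nr3c1, the glucocorticoid receptor gene, at -69.8 kb (0.64 ± 0.14; adjusted p = 0.00146), and the TSS peak of Ncoa1, the p160 relative SRC-1 (-0.19 ± 0.04, SE; adjusted p = 0.00362). With Dex, 59 list peaks rose and 17 fell in KO, and 67 rose and 20 fell in WT, which is 22.3% and 25.5% of the list, against 13.6% and 16.6% of all peaks. Of the list peaks that rose with Dex, Tsc22d3, a glucocorticoid-induced leucine zipper gene, held 16 in each genotype, out of 22 tested. Fkbp5, a co-chaperone of the receptor, held 15 in KO and 18 in WT, out of 28 tested. These genes raise the Dex share of the list, so that share does not describe GRIP1 partners as a class. With IL4, 57 rose and 45 fell in KO, and 64 rose and 57 fell in WT, at 29.9% and 35.5% near the 31% and 35.4% of all peaks.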

How the data were processed

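Accessibility was analysed in 24 ATAC-seq libraries of macrophages, 4 in each of 6 groups. The deposited count matrix holds whole-number counts of reads per peak for 144411 peaks. The authors' deposited table of comparisons gives log2 fold changes and FDR-adjusted p-values for 71942 peaks, with gene names, distances to start sites and FANTOM enhancers, per the file headers. The build is mm10, and the tools listed in the submitters' processing notes, with no version or role, are MACS2, featureCounts, fastp, edgeR, Bowtie2 and SAMtools.

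Members are peaks named Ncoa2 in the table, plus matrix peaks without a row whose nearest listed start site, within 50 kb, is that of Ncoa2. The members and gene lists were chosen with earlier results of these data known. Counts were fitted in edgeR 4.0.16 (R 4.3.3; limma 3.58.1) with TMM factors (0.935 to 1.07), filterByExpr, 1 mean per group over all 24 libraries and the robust quasi-likelihood test. P-values were adjusted by Benjamini-Hochberg over the 130103 tested peaks and called under 0.05. Genotype was tested in each treatment and as the mean of the 3, treatment within each genotype, and the interactions. CPM are counts per 1000000 of the TMM-scaled library size. The fits were tested on simulated counts with known genotype changes. Those were planted only in peaks above a minimum mean count, with libraries drawn independently. The lowest-count peaks and linked libraries were thus not covered. The fold changes in the authors' table and those computed here had a slope of 0.984 to 1.00 over the 18 listed peaks, so both are base 2.

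Values in all libraries or per group are given for the TSS peak, peaks called in the genotype mean (up to 8), and the 4 called peaks with the smallest p in each treatment comparison; named besides are the 5 TSS peaks most like that of Ncoa2 and the 3 list peaks with the smallest genotype p. Alternatives were DESeq2 1.42.0 size factors, total counts or loess offsets as the scaling, no filter or a mean count of at least 10, the DESeq2 test, a replicate block, only the groups compared, and each library left out. Added after seeing the data were the counts of same-numbered libraries of a genotype summed over treatments (4 against 4) and a replicate block within each genotype. The chi-square per degree of freedom between replicates of a group was 1.10 to 2.16, so no library was an exact copy of another in its group. Promoter motifs were not analysed here.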

Additional observations from a re-analysis of the deposited data

Results flagged for a closer look

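In groups of 4 libraries, a library was singled out where its gap to the nearest other value exceeded Dixon's 95% critical share of the group's range. Of 90 groups over 15 peaks, 6 held such a library, and chance gives about 1 in 20. At 116.0 kb it was KO Dex replicate 4, at 3.97 CPM, above the other 3 KO Dex libraries and below all WT libraries. At 76.7 kb it was KO vehicle replicate 4, at 1.93 CPM, also above its group. At 43.8 kb it was KO vehicle replicate 1, at 1.12 CPM and below its group, and WT vehicle replicate 1, at 1.84 CPM and above its group, the library at which WT Dex and WT vehicle overlap. At 29.6 kb it was KO IL4 replicate 2, at 3.93 CPM and above its group. At -50.6 kb it was KO Dex replicate 1, at 8.16 CPM and below its group. No 2 of these flags fell on the same library.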

How the results depend on the processing

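Over the alternatives, the numbers of Ncoa2 peaks called stayed within 1.5 times the reported ones in 205 cases and not in 3. The exceptions were KO against WT with IL4, where 5 peaks were called, but 3 in DESeq2, and 3 to 5 when a library was left out, with 3 without KO IL4 replicate 1 or WT IL4 replicate 2. The mean over treatments gave 5 to 8 with a library left out. Single-peak fold changes kept direction and call in 726 cases and lost the call in 45. They reversed in 2, the TSS peak with IL4 under loess offsets, at 0.018 in KO and 0.067 in WT; the cause was not tested. A fit of only the groups compared was not made for the mean over treatments. Within a genotype, same-numbered libraries correlated in their deviations from group means at a median r of 0.078 (over 0.1 in 9 of 24 pairs), differently numbered ones at -0.024 (0 of 72), and same-numbered ones across genotypes at -0.025 (0 of 36). This is a hint that numbers are linked within a genotype, which the labels do not state. With a replicate block shared by the genotypes 7 peaks were called by genotype in the mean. With one within each genotype, 3 and 6 were called with Dex and 9 and 7 with IL4 in KO and WT, and 0 in either interaction. Scaling by total counts moved the median of all peaks by at most 0.057 on the log2 scale. Low counts limit most distal peaks.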
